A study of Mus musculus with 3 samples.

Results

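The prostanoid receptors are the 9 G protein-coupled receptors through which cells sense prostaglandins, prostacyclin and thromboxane. They were taken by symbol from the 32285 genes of each deposited matrix, and all 9 were present: Ptger1, Ptger2, Ptger3, Ptger4, Ptgdr, Ptgdr2, Ptgfr, Ptgir and Tbxa2r. Their UMIs, the unique molecular identifiers that count captured transcripts, were summed over the cells of each library and over the marker-defined cell classes in it. Levels are given as CPM, the UMIs of a gene per 1000000 UMIs of all genes, with exact Poisson 95% intervals in parentheses.

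Prostanoids are lipids made from arachidonic acid by the cyclooxygenases, of which Cox-2, encoded by Ptgs2, is the inducible form. They act close to where they are made, so a cell's response depends on which receptors it carries. EP2 (Ptger2) and EP4 (Ptger4) for prostaglandin E2, DP1 (Ptgdr) for prostaglandin D2 and IP (Ptgir) for prostacyclin couple to Gs and raise cyclic AMP. EP3 (Ptger3) and DP2 (Ptgdr2) act mainly through Gi, which lowers cyclic AMP, whereas EP1 (Ptger1), FP (Ptgfr, for prostaglandin F2α) and TP (Tbxa2r, for thromboxane) mainly raise intracellular calcium. In skin these receptors are known for roles in inflammation, immune cell migration and hair follicle growth.

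Dorsal skin was taken from male C57Bl/6 mice aged 8 weeks, with follicles in telogen, digested, and enriched for CD45+ cells with magnetic beads. WTctrl was wild-type skin without UVB, WTUV was wild-type skin after 3 UVB exposures, and RPUV was skin of RP mice after 3 UVB exposures. RP mice carry Rosa26-rtTA and Tre-Ptgs2, by which rat Ptgs2 is overexpressed in all tissues when doxycycline is given. Whether the wild-type mice of these libraries were also given doxycycline is not stated in the labels. Each group was 1 library, so no test was possible, no difference had a replicate check, and every interval covers counting error only.

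The 3 libraries kept 5309, 5225 and 6070 cells after filtering, in the order WTctrl, WTUV, RPUV, with a median of 4246, 10557 and 3774 UMIs per cell. The labels place WTUV on another flow cell than WTctrl and RPUV, so sequencing run and group cannot be told apart in comparisons with WTUV. Only RPUV over WTctrl compares libraries of the same run, and these differ in both genotype and UVB. Cell classes were rebuilt from marker panels, and each name means that the cells resembled that type. In spite of the enrichment, 1200, 519 and 1124 keratinocytes were found beside 1965, 2315 and 2106 macrophages or monocytes. WTUV held only 10 fibroblasts, against 355 in WTctrl and 222 in RPUV. Neutrophils numbered 14, 58 and 582, and T cells 297, 451 and 52. Cells that took no name made up 8.16%, 16.8% and 15.3% of the libraries.

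The receptor genes are scattered over the genome, and Ptger2 and Ptgdr are neighbours on chromosome 14. In RefSeq on GRCm38.p6, Ptger2 spans chr14:44988111-45003820, Ptger4 chr15:5233399-5244187, Ptgir chr7:16906490-16910905 and Ptgfr chr3:151798610-151837528. Ptger3 spans chr3:157566821-157644758, Ptgdr chr14:44851235-44859375, Ptgdr2 chr19:10924519-10942511, Tbxa2r chr10:81328268-81335174 and Ptger1 chr8:83666644-83672756. Ptgdr overlaps Gm34198 and Gm16976, and Ptgdr2 overlaps Ccdc86, so reads in those stretches may be uncertain in origin. Ptger2, Ptger3, Ptger4, Ptgir, Ptgfr and Tbxa2r overlap no annotated gene.

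The promoters of 4 receptors are shown because these genes carry the main contrasts described here. Ptger2 and Ptgir were both high in a pair of macrophage clusters of the wild-type libraries, Ptger4 was low in those clusters and spread over many cell classes, and Ptgfr was found mainly in fibroblasts. Each runs from 250 bases before to 50 after the annotated start, 5′ to 3′ on the gene's strand. They lie at chr14:44987861-44988160 (plus strand, Ptger2), chr7:16906240-16906539 (plus, Ptgir), chr15:5244138-5244437 (minus, Ptger4) and chr3:151837479-151837778 (minus, Ptgfr). Capitals mark the GC box GGGCGG and the PU.1-type core GAGGAA, each searched on both strands.
Ptger2: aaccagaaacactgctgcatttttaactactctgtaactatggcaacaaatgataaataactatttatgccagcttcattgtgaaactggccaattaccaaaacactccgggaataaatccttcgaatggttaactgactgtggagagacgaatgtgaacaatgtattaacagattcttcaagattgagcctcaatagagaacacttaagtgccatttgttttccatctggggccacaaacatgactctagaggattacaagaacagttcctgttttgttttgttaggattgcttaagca
Ptgir: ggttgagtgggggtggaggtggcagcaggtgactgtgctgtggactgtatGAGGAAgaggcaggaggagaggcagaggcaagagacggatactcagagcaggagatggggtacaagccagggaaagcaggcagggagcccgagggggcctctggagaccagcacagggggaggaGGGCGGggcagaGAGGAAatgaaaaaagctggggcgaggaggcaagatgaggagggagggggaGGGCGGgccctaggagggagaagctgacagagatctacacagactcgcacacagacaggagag
Ptger4: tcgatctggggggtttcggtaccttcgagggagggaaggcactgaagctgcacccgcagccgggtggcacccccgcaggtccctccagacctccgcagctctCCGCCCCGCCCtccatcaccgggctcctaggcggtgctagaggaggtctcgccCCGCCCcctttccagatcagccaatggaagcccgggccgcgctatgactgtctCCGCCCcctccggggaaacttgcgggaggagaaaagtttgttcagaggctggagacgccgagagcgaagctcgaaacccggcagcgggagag
Ptgfr: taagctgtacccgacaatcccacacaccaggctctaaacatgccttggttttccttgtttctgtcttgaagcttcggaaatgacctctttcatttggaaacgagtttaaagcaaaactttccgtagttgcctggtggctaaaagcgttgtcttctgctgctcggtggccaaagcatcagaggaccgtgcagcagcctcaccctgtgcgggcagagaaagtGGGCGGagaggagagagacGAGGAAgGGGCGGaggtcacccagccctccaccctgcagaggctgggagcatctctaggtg
The Ptger2 window was AT-rich, with a GC content of 37.7%, and held neither motif. The Ptger4 window had a GC content of 67.0% and 4 GC boxes on the reverse strand, a pair of which overlap by a single base. The Ptgir window, at 62.0%, held 2 GC boxes and 2 GAGGAA cores, and the Ptgfr window, at 54.3%, held 2 GC boxes and 1 core. Among 32851 RefSeq promoters of the same length, 35.7% held a GC box and 28.3% a GAGGAA core. The cyclic AMP response element TGACGTCA, present in 1.79% of promoters, was in none of the windows of the 8 receptors with an entry, nor were TATAAA (13.6%) or CACGTG (7.15%). A match of letters is a description and not a binding site.

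Some receptors lay mainly in immune cells or mainly in structural cells, and others in both. In WTctrl, 266 of 297 Ptgfr UMIs were in fibroblasts and 25 of 27 Ptgdr UMIs in keratinocytes. Most Ptger2 UMIs there, 61 of 90, were in macrophages or monocytes. Ptger3 and Ptgir were led by dendritic cells, with 128 of 277 and 138 of 317 UMIs. Ptger4 was spread most widely, with 36.4% of its UMIs in macrophages or monocytes and 23.7% in keratinocytes. Unnamed cells held 19.6%, 46.4% and 39.4% of the Ptgir UMIs in WTctrl, WTUV and RPUV, and 11.6%, 20.9% and 19.1% of those of Ptger4.

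**Figure D1:**
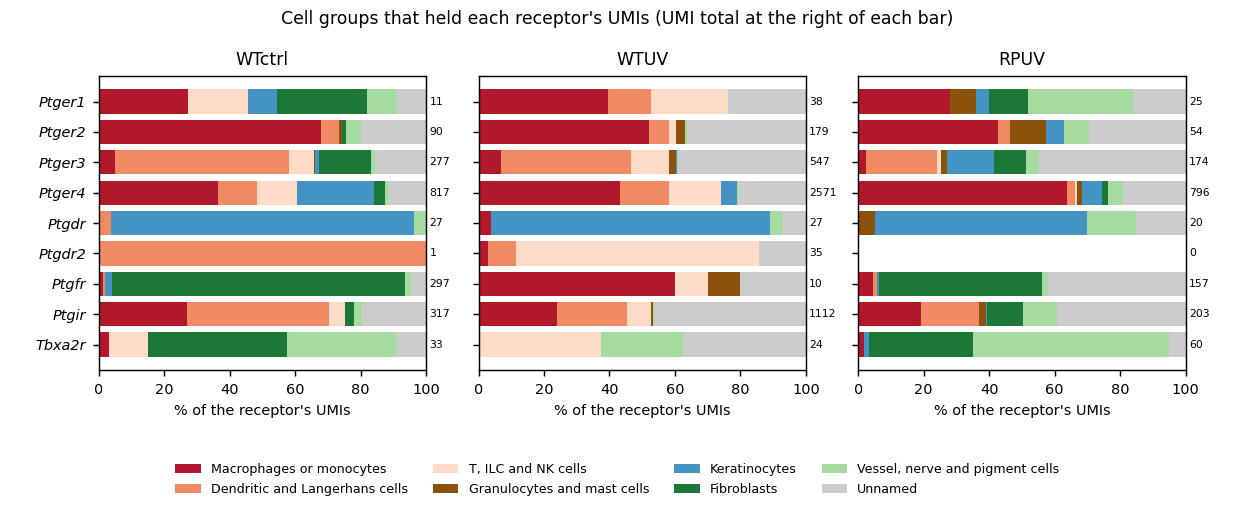
Share of each receptor's UMIs, in percent, held by 7 groups of named cells and by unnamed cells, in 1 panel per library, with the UMI total at the right of each bar. Fibroblasts hold most Ptgfr in WTctrl and none in WTUV, where 10 fibroblasts were captured, and the keratinocyte part of Ptger4 goes from 23.7% in WTctrl to 4.75% in WTUV and 6.16% in RPUV.

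Over the whole library, Ptger4 had 31.7 (WTctrl), 39.8 (WTUV) and 27.3 (RPUV) CPM, whereas Ptgdr2 had 1, 35 and 0 UMIs in all. A ratio was counted as higher or lower when it was at least 2 or at most 0.5, its exact binomial 95% interval left out 1, and at least 10 UMIs stood behind it. In WTUV over WTctrl this held for 1 receptor upward, against 4.93% of all 17174 genes tested, and for 3 downward, against 15.7%. Ptgdr2 was higher, with a ratio of 14 (2.35 to 568). Ptgfr was lower at 0.0135 (0.00639 to 0.0251), Tbxa2r at 0.291 (0.164 to 0.507) and Ptgdr at 0.40 (0.226 to 0.708).

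In RPUV over WTUV, 2 receptors were higher (background 17.0%) and 2 lower (background 8.63%). Ptgfr had a ratio of 34.8 (18.4 to 74.0) and Tbxa2r of 5.54 (3.40 to 9.30). Ptgir was lower at 0.405 (0.347 to 0.470), and Ptgdr2, with no UMI in RPUV, was 5.26-fold lower, taking 3 UMIs as the floor. The Ptgdr2 value leaves out the counting error of WTUV. In RPUV over WTctrl none was higher (background 7.63%) and only Ptgfr was lower (background 8.29%), at 0.468 (0.383 to 0.570). The median over the 9 receptors of the log2 ratio, with 1 CPM added to each level, was -0.25, -0.40 and -0.28 in the order of these 3 comparisons, beside -0.03, 0.05 and -0.00 over all tested genes. A whole-library value mixes the number of cells of a type with the level in them, and the captured fibroblasts, 355, 10 and 222, followed the same order as Ptgfr. With cells thinned to 2000 UMIs, both Ptgdr2 calls and both Tbxa2r calls were lost, the latter at 0.655 and 1.67.

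**Figure D2:**
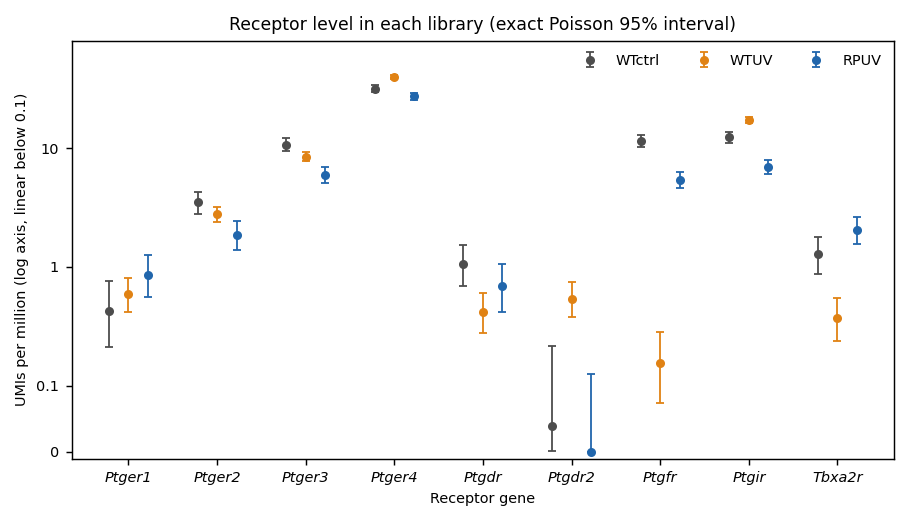
Level of each receptor in CPM, on a log axis that is linear below 0.1, with 1 point per library and bars for the exact Poisson 95% interval. Ptger4 is at 31.7, 39.8 and 27.3, and Ptgfr drops to 0.155 in WTUV between 11.5 in WTctrl and 5.39 in RPUV.

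Within cell classes, summed over the named classes, 3.58% of all tested values were higher and 3.41% lower in WTUV over WTctrl, and of 25 receptor values in 10 classes 0 were higher and 2 lower (8.00%). In RPUV over WTUV the background was 4.22% higher and 4.27% lower, and of 23 receptor values 1 was higher and 5 were lower (21.7%). In RPUV over WTctrl it was 5.69% higher and 5.91% lower, and of 26 receptor values 2 were higher and 6 lower (23.1%). Each library enters 2 of the 3 comparisons, so these counts are not independent. The values counted as lower were those of Ptger2, Ptger3 and Ptgir in macrophages, Ptger4 and Ptgdr in keratinocytes, Ptgfr in fibroblasts, Ptger3 and Ptger4 in Langerhans cells and Ptger2 in neutrophils.

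**Figure D3:**
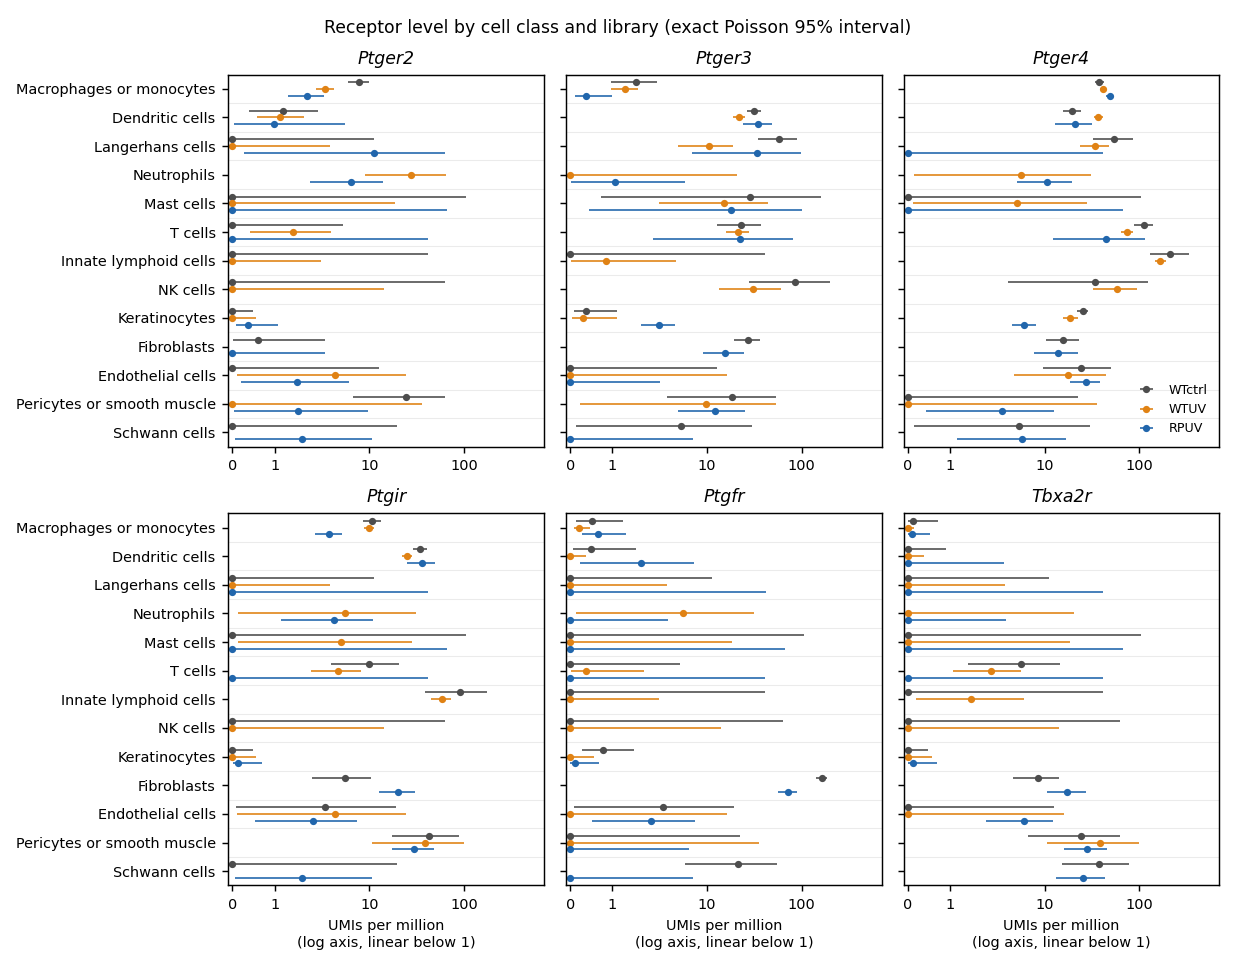
Level of 6 receptors in CPM, on a log axis that is linear below 1, in each cell class with at least 20 cells in a library, with bars for the exact Poisson 95% interval. Ptgfr stands apart in fibroblasts, at 162 in WTctrl and 71.4 in RPUV, and keratinocyte Ptger4 goes from 25.1 and 18.7 in the wild-type libraries to 6.09 in RPUV.

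Ptger4 (EP4), a prostaglandin E2 receptor that raises cyclic AMP and is widespread on leukocytes, was highest, among the named classes of the wild-type libraries, in lymphocytes. Innate lymphoid cells had 213 (128 to 333) CPM in WTctrl and 167 (145 to 192) in WTUV, followed by T cells with 112 (88.5 to 139) and 74.7 (64.6 to 86.0). These classes overlapped in WTctrl and did not in WTUV. Clusters of the alpha beta T cell panel carried 150 (118 to 188) in WTctrl and 133 (113 to 156) in WTUV, against 16.2 (6.49 to 33.3) in the gamma delta clusters of WTUV. RPUV had 4 innate lymphoid cells, and its 52 T cells gave 4 Ptger4 UMIs, at 44.9 (12.2 to 115). Mature dendritic cells, which migrate to lymph nodes, had 119 (66.6 to 196) in WTctrl and 177 (146 to 213) in WTUV, from 18 and 36 cells.

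Macrophages or monocytes carried Ptger4 at 37.9 (33.7 to 42.4), 41.0 (38.6 to 43.5) and 48.6 (44.5 to 53.0) CPM in WTctrl, WTUV and RPUV. RPUV had the highest level, at a ratio of 1.28 (1.11 to 1.49) to WTctrl and 1.19 (1.07 to 1.32) to WTUV, which was short of the rule. These cells supplied 297 of 817, 1112 of 2571 and 507 of 796 Ptger4 UMIs, and in RPUV they ranked first, with an interval that overlapped that of T cells. The integrated clusters were divided again on counts without integration, and the part of depth and sequencing run in that division was not tested. The macrophages of the 3 libraries fell mostly into different clusters. The largest were a Hal and Ccl8 cluster and a Retnla and Lyve1 cluster in WTctrl (573 and 570 cells), a Ccl8 and Cd209d cluster and an Ednrb and C6 cluster in WTUV (518 and 424), and a Lyve1 and Fcna cluster and a Ccl12 and Ccl7 cluster in RPUV (734 and 450). Ptger4 in them was 46.2 and 43.4, 51.8 and 55.3, and 66.3 and 59.7 CPM in the same order. Lower values lay in the RPUV clusters led by Chil3, at 19.8 (13.3 to 28.4) and 30.9 (21.7 to 42.8).

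Dendritic cells carried Ptger4 at 19.5 (15.5 to 24.3), 37.0 (33.2 to 41.0) and 20.9 (13.0 to 32.0) CPM. WTUV was above both other libraries without overlap, at a ratio of 1.89 (1.48 to 2.45) to WTctrl, just short of the rule. Type 2 dendritic cells, which present antigen to helper T cells, had 17.4, 28.3 and 21.0. Their ratio was 1.63 (1.21 to 2.22) for WTUV over WTctrl. For RPUV over WTUV it was 0.742 (0.438 to 1.19), an interval that includes 1. In Langerhans cells, the antigen-presenting cells of the epidermis, Ptger4 was 54.6 (32.4 to 86.3) and 34.2 (23.5 to 48.0) in the wild-type libraries, with no UMI in the 22 cells of RPUV. That 0 allows up to 33.8 CPM by the floor given to a count of 0, and its exact Poisson interval ends at 41.5. The ratio of RPUV to WTctrl was 0 (0 to 0.845) and was counted as lower, as were 4.37% of tested genes. With Langerhans cells named in other ways, the ratio of RPUV to WTctrl was 0.194, 0.195 and 0.200, so the 0 itself depends on the naming, and thinning lost the call.

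Keratinocytes differed more between libraries. Their Ptger4 was 25.1 (21.7 to 28.9) CPM in WTctrl, 18.7 (15.6 to 22.4) in WTUV and 6.09 (4.50 to 8.05) in RPUV, from 194, 122 and 49 UMIs. RPUV lay below both wild-type libraries without overlap, at 0.243 (0.174 to 0.334) of WTctrl and 0.325 (0.228 to 0.456) of WTUV, while the wild-type libraries overlapped, with a ratio of 0.747 (0.591 to 0.942). Among genes tested in keratinocytes, 10.1% were lower in RPUV over WTctrl and 5.79% in RPUV over WTUV. Basal keratinocytes, the dividing layer, had 29.8 (24.6 to 35.7), 22.7 (17.6 to 28.9) and 8.32 (5.76 to 11.6), and suprabasal keratinocytes 9.17 (4.58 to 16.4), 6.66 (3.73 to 11.0) and 2.93 (1.34 to 5.57), so basal cells were above suprabasal cells without overlap in each library. The ratio to WTctrl was 0.172 to 0.291 under the alternatives run, and the ratio to WTUV was 0.509, no longer past the rule, when per-cell levels were averaged.

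Keratinocytes of the 3 libraries also fell largely into different clusters, for which the part of depth and run was likewise not tested. In 4 clusters with at least 20 cells of each library, RPUV and WTctrl together had 10 or more Ptger4 UMIs. In the cluster led by Mt4 and Clca3a2, Ptger4 was 23.3, 19.5 and 21.0 CPM in WTctrl, WTUV and RPUV, a ratio of RPUV to WTctrl of 0.901 (0.237 to 2.45). In the Defb6 and Krt79 cluster, of which Krt79 marks the upper follicle, it was 45.6, 46.0 and 14.4, a ratio of 0.316 (0.0354 to 1.33). The Sostdc1 and Ccl27a cluster had 82.7, 31.7 and 38.5, a ratio of 0.466 (0.156 to 1.17), and there WTUV was lower than WTctrl, at 0.383 (0.179 to 0.784). In the Col17a1 and Krt15 cluster it was 27.5 and 18.0, with no UMI in the 23 cells of RPUV. None of the 4 ratios of RPUV to WTctrl was past the rule, and their intervals include both 1 and the ratio over all keratinocytes. Fewer keratinocytes of a high-Ptger4 kind and less Ptger4 per cell could therefore not be told apart.

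Markers of other cell types in the keratinocytes did not all follow Ptger4. All 10 macrophage markers were detected, at a sum of 149, 300 and 525 CPM in WTctrl, WTUV and RPUV. The 10 alpha beta T cell markers summed to 87.8, 97.0 and 73.8, with 9, 9 and 7 detected and Cd3e and Cd3d at 0 in RPUV. The 10 gamma delta T cell markers summed to 5.04, 6.45 and 0.870, with 5, 4 and 4 detected, and the part of T cell RNA in the Ptger4 result was not tested. With each cell thinned to 2000 UMIs, the keratinocytes with a Ptger4 UMI made up 5.0% (3.84 to 6.48), 4.24% (2.66 to 6.68) and 0.926% (0.470 to 1.82), and unthinned 12.8%, 16.8% and 4.0%, at median depths of 6060, 9242 and 5991 UMIs. The lowest thinned share of any class was 3.59% in WTctrl dendritic cells (median 6000 UMIs), keratinocytes themselves in WTUV, and 0 of 108 pericytes or smooth muscle cells in RPUV (median 2523), which allows up to 2.78%. By this measure the keratinocyte share was not separated from the lowest class in any library. Dendritic cells carry Ptger4 themselves, so their share is no pure background.

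Ptger2 (EP2), the other prostaglandin E2 receptor that raises cyclic AMP, was sparse, and macrophages or monocytes held more of its UMIs than any other named class. Macrophages or monocytes had 7.78 (5.95 to 9.99), 3.43 (2.77 to 4.20) and 2.21 (1.40 to 3.31) CPM in WTctrl, WTUV and RPUV. They held 61, 93 and 23 of the 90, 179 and 54 Ptger2 UMIs of these libraries, and unnamed cells lay outside these sums. Both UVB libraries were below WTctrl without overlap, at 0.441 (0.316 to 0.619) and 0.284 (0.167 to 0.465), and they overlapped with each other. The background of lower genes in macrophages was 3.00% in WTUV over WTctrl and 6.50% in RPUV over WTctrl. The first ratio was lost at 0.524 with the same gene limit in every library and at 0.525 with cells classed from their own markers, and at 0.602 as a mean over cells. Pericytes or smooth muscle of WTctrl gave 24.4 (6.66 to 62.6) from 4 UMIs, which overlapped with macrophages. Neutrophils were above macrophages without overlap in WTUV and overlapped with them in RPUV. Neutrophils had 27.9 (9.05 to 65.0) in WTUV and 6.38 (2.34 to 13.9) in RPUV, from 5 and 6 UMIs, a ratio of 0.229 (0.0582 to 0.948) (background of lower genes 5.36%) that turned to 1.41 after thinning and was lost at 0.668 and 0.515 with other namings.

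Part of the macrophage Ptger2 lay in a pair of small clusters led by Lyz1, Retnla and Mucl1, singled out after their values had been seen. These clusters had 36 of 61, 30 of 93 and 6 of 23 macrophage Ptger2 UMIs in WTctrl, WTUV and RPUV. They held 194, 72 and 32 cells of WTctrl, WTUV and RPUV. Their Ptger2 was 33.6 (23.5 to 46.5), 27.6 (18.6 to 39.4) and 34.0 (12.5 to 74.1) CPM, so the 3 libraries overlapped there. Without these clusters, macrophages had 3.69, 2.42 and 1.66, with a ratio of 0.655 (0.406 to 1.09) for WTUV over WTctrl, no longer counted as lower, and 0.449 (0.228 to 0.865) for RPUV over WTctrl, which still was. Another set left out was the 4 macrophage clusters with Lyve1 or Cd4 among their leading genes. It included the Ednrb and C6 cluster and not the Hal and Ccl8 cluster. Without that set WTUV over WTctrl was 0.50, just outside the rule, and RPUV over WTctrl was 0.257 (0.139 to 0.453). The thinned share of macrophages with a Ptger2 UMI was 1.55% (1.06 to 2.26), 0.763% (0.477 to 1.22) and 0.476% (0.25 to 0.902), and unthinned 2.80%, 3.46% and 1.09%. The lowest class was 0 of 276 fibroblasts, 0 of 159 innate lymphoid cells and 0 of 158 dendritic cells, which allows up to 1.09%, 1.89% and 1.90%, so only in WTctrl was the macrophage share above that limit, which its interval still reached. The macrophages had median depths of 3856, 10912 and 4509 UMIs, and the lowest classes of 3289, 6976 and 5539.

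Ptgir (IP), the prostacyclin receptor known from vessel walls and platelets, was led by innate lymphoid cells, mural cells and dendritic cells. Innate lymphoid cells had 89.8 (38.8 to 177) CPM in WTctrl and 58.0 (45.2 to 73.5) in WTUV. Pericytes or smooth muscle had 42.8 (17.2 to 88.1), 38.7 (10.6 to 99.2) and 29.8 (17.4 to 47.8) in WTctrl, WTUV and RPUV, and dendritic cells 34.1 (28.7 to 40.3), 24.9 (21.9 to 28.3) and 35.9 (25.1 to 49.7). Neighbours in this order overlapped, and in each library dendritic cells were above macrophages without overlap. Type 2 dendritic cells had 40.6, 31.6 and 39.8, while type 1 dendritic cells of WTUV had 3.00 (0.974 to 7.0). No receptor ratio passed the rule in dendritic cells, where 4.14% of tested genes were higher and 2.82% lower in WTUV over WTctrl, 3.32% and 3.95% in RPUV over WTUV, and 5.67% and 5.85% in RPUV over WTctrl. Keratinocytes had no Ptgir UMI in WTctrl or WTUV and 1 in RPUV.

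In macrophages or monocytes Ptgir was 10.8 (8.66 to 13.4), 9.84 (8.70 to 11.1) and 3.74 (2.66 to 5.11) CPM, from 85, 267 and 39 UMIs. RPUV was below both wild-type libraries without overlap, at 0.345 (0.230 to 0.510) of WTctrl and 0.380 (0.264 to 0.533) of WTUV (background of lower genes 6.64%). The Lyz1 and Retnla clusters were high here too, with 49.4 (37.0 to 64.6), 58.9 (45.4 to 75.2) and 11.3 (1.37 to 41.0), the last from 2 UMIs. Without them the ratio of RPUV over WTctrl was 0.763 (0.463 to 1.27), no longer counted, and over WTUV it was 0.463 (0.317 to 0.660), which still was. Without the 4 clusters with Lyve1 or Cd4 among their leading genes these ratios were 0.320 (0.206 to 0.486) and 0.314 (0.211 to 0.455). The ratio to WTctrl was short of the rule at 0.509 with cells classed from their own markers, and that to WTUV at 0.553 with clusters made without integration. The 8 markers of type 2 dendritic cells, which carry Ptgir, also went down in RPUV macrophages, with sums of 489, 388 and 143 CPM, 8, 8 and 7 detected and Flt3 at 0 in RPUV, and their part in the Ptgir result was not tested. Monocyte clusters had 33.3 (15.2 to 63.3) in WTctrl and 21.9 (16.9 to 27.9) in WTUV. An unnamed cluster led by Fn1, Lyz1 and Ear2 had 54.4 (34.5 to 81.6), 86.4 (74.7 to 99.4) and 31.9 (10.3 to 74.3) and so lay outside these sums. The thinned share of macrophages with a Ptgir UMI was 2.20% (1.60 to 3.02), 1.80% (1.32 to 2.44) and 0.740% (0.441 to 1.24), and unthinned 4.07%, 8.51% and 1.76%. The lowest class was 0 of 1060 and 0 of 401 keratinocytes in the wild-type libraries, which allows up to 0.283% and 0.748% (median 6060 and 9242 UMIs), and 0 of 113 neutrophils in RPUV, up to 2.65% (median 1314).

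In the pair of Lyz1 and Retnla clusters, by contrast, Ptger4 was low, at 7.46 (3.22 to 14.7) and 13.8 (7.73 to 22.8) CPM in WTctrl and WTUV, with no UMI in RPUV, where up to 17.0 is allowed. The remaining macrophages had 42.7, 42.1 and 49.4. The receptors took part in the clustering, so this contrast is a description. It did not extend to all cells with Ptger2 or Ptgir. The Ednrb and C6 macrophage cluster of WTctrl had Ptger2 at 15.5 (5.02 to 36.1) from 5 UMIs beside Ptger4 at 74.3 (47.6 to 111), and innate lymphoid cells were high in both Ptger4 and Ptgir.

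**Figure D4:**
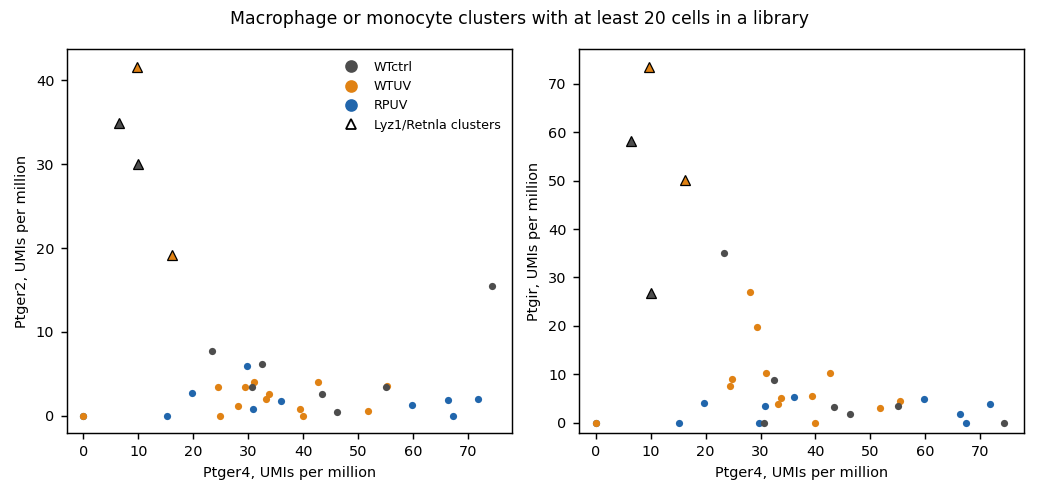
Each point is a macrophage or monocyte cluster with at least 20 cells in a library, with Ptger4 on the x axis and Ptger2 (left) or Ptgir (right) on the y axis, both in CPM, coloured by library. The triangles, the Lyz1/Retnla clusters, combine high Ptger2 and Ptgir with low Ptger4 in WTctrl and WTUV.

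In fibroblasts Ptgir differed in the other direction. Their level was 5.48 (2.51 to 10.4) CPM in WTctrl and 20.1 (12.6 to 30.5) in RPUV, a ratio of 3.68 (1.63 to 9.07) from 9 and 22 UMIs, where 6.41% of genes tested in fibroblasts were higher. A further 187 RPUV cells formed an unnamed cluster led by Slc26a7, Crabp1 and Igfbp3, singled out after its values had been seen, with Ptgir at 79.1 (53.3 to 113). The WTctrl fibroblast cluster led by Igfbp3, Crabp1 and Slc26a7 (147 cells) had 14.3 (4.66 to 33.5). With the unnamed cluster added to the fibroblasts, the Ptgir ratio was 6.46 (3.16 to 14.9). Thinning, which left fewer UMIs, gave 5.49 and was short of the rule. The 8 markers of pericytes or smooth muscle, which have high Ptgir, summed to 93.1 and 173 CPM in the fibroblasts of WTctrl and RPUV, with 8 and 7 detected and Myh11 at 0 in RPUV. The 10 macrophage markers summed to 568 and 1119, all detected, and the part of either in the result was not tested.

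Ptgdr (DP1), which binds prostaglandin D2 and raises cyclic AMP, had most of its UMIs in keratinocytes. Keratinocytes held 25 of 27, 23 of 27 and 13 of 20 of its UMIs, at 3.23 (2.09 to 4.77), 3.53 (2.24 to 5.30) and 1.62 (0.860 to 2.76) CPM. Pericytes or smooth muscle had 6.11 (0.155 to 34.0), 9.68 (0.245 to 54.0) and 5.27 (1.09 to 15.4), from 1, 1 and 3 UMIs. They overlapped with keratinocytes in each library. The keratinocyte ratio of RPUV over WTUV, 0.457 (0.213 to 0.942), was counted as lower, but it was lost under 6 alternatives, at 0.464 to 0.554. The Defb6 and Krt79 cluster had 32.2 (16.6 to 56.3), 14.7 (6.35 to 29.0) and 14.4 (1.74 to 52.0) in WTctrl, WTUV and RPUV, and a Cst6 and Sprr1a cluster had 31.8 (11.7 to 69.2) in WTctrl. The whole-library difference between WTUV and WTctrl was not seen within keratinocytes, where the ratio was 1.09 (0.593 to 2.01). WTUV held 519 keratinocytes against 1200 in WTctrl.

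Ptger3 (EP3), the prostaglandin E2 receptor that lowers cyclic AMP, was led by dendritic cells, Langerhans cells, natural killer cells, T cells and fibroblasts. Dendritic cells had 31.6 (26.4 to 37.6), 21.8 (18.9 to 25.0) and 34.9 (24.3 to 48.6) CPM, and their type 2 subset 38.4, 27.7 and 38.7. Dendritic cells held 128, 208 and 35 of the 277, 547 and 174 Ptger3 UMIs of WTctrl, WTUV and RPUV, and unnamed cells lay outside the class sums. A type 2 cluster led by Ear2 and Tnip3 had 87.2 (69.1 to 109) in WTctrl and 63.3 (48.9 to 80.5) in WTUV, and Ptger3 was among its leading genes. T cells had 22.6 (12.9 to 36.8), 21.3 (16 to 27.7) and 22.5 (2.72 to 81.2), the last from 2 UMIs. In WTctrl and WTUV, alpha beta clusters had 11.8 and 6.97, and T cell clusters given to neither subset 53.9 and 45.0. Innate lymphoid cells had 0 and 1 Ptger3 UMIs in these libraries. Natural killer cells had 85.1 (27.6 to 199) and 30.9 (13.3 to 60.8) in the wild-type libraries from 5 and 8 UMIs, and 14 basophils of WTUV had 108 (46.5 to 212). The leading classes overlapped with their neighbours in the order of levels. The thinned share of dendritic cells with a Ptger3 UMI was 5.88% (4.28 to 8.04), 3.8% (2.50 to 5.74) and 6.96% (3.93 to 12), and unthinned 14.7%, 23.1% and 14.7%, at median depths of 6000, 16597 and 5539 UMIs. The lowest class was 0 of 1060 keratinocytes in WTctrl (median 6060 UMIs), which allows up to 0.283%, 0.135% of macrophages in WTUV (median 10912) and 0 of 228 endothelial cells in RPUV (median 2718), up to 1.32%.

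Langerhans cells had Ptger3 at 57.6 (34.7 to 90.0) CPM in WTctrl, 10.4 (4.96 to 19.0) in WTUV and 33.8 (6.97 to 98.7) in RPUV, from 19, 10 and 3 UMIs. WTUV was below WTctrl without overlap, at 0.180 (0.0746 to 0.406), where 3.60% of tested genes were lower, and RPUV overlapped with both. After thinning the ratio was 0.167 and no longer past the rule. The 8 markers of type 2 dendritic cells, which also carry Ptger3, summed to 328, 520 and 541 CPM in the Langerhans cells of the 3 libraries, with 6, 8 and 5 detected, and so were higher in WTUV than in WTctrl.

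Macrophages had little Ptger3. Their 14, 37 and 4 UMIs gave levels of 1.79 (0.976 to 3.00), 1.36 (0.96 to 1.88) and 0.384 (0.104 to 0.982) CPM. RPUV was lower, at 0.215 (0.0515 to 0.684) of WTctrl and 0.281 (0.0728 to 0.783) of WTUV. The 8 type 2 dendritic cell markers moved with it, at 489, 388 and 143 CPM in macrophages (8, 8 and 7 detected, with Flt3 at 0 in RPUV), against 1630, 1487 and 1715 in dendritic cells, and their part in the result was not tested. The thinned share of macrophages with a Ptger3 UMI was 0.298%, 0.135% and 0%, and unthinned 0.662%, 1.38% and 0.190%, and in WTUV it was the lowest of any class and is read as background. Without the 4 Lyve1 or Cd4 clusters the ratios were 0.216 (0.0518 to 0.688) and 0.249 (0.0641 to 0.698). Clusters made without integration gave 0.530 and 1.06. With cells classed from their own markers they were 0.717 and 0.787, so no ratio of Ptger3 was past the rule under either naming, nor after thinning, which left RPUV macrophages with no Ptger3 UMI.

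In keratinocytes Ptger3 had 0.388 (0.080 to 1.13), 0.307 (0.0372 to 1.11) and 3.11 (2.01 to 4.59) CPM, from 3, 2 and 25 UMIs. The ratio was 8.01 (2.44 to 41.4) for RPUV over WTctrl (background of higher genes 9.54%) and 10.1 (2.52 to 88.1) for RPUV over WTUV (7.13%). Of the 25 UMIs of RPUV, 22 were in 37 cells of a cluster led by Elovl6, Cers4, Scd1 and Cidea, genes of lipid metabolism, which was singled out after its values had been seen. That cluster held 6 cells of WTctrl and 0 of WTUV. Without it the ratios were 1.02 (0.136 to 7.61) and 1.31 (0.150 to 15.6), neither counted. The ratios turned to 0.770 and 0.871 when cells were classed from their own markers, and to 0.789 for RPUV over WTctrl without integration. Over WTUV the call was also lost at 1.70 without integration and 2.32 after thinning.

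**Figure D5:**
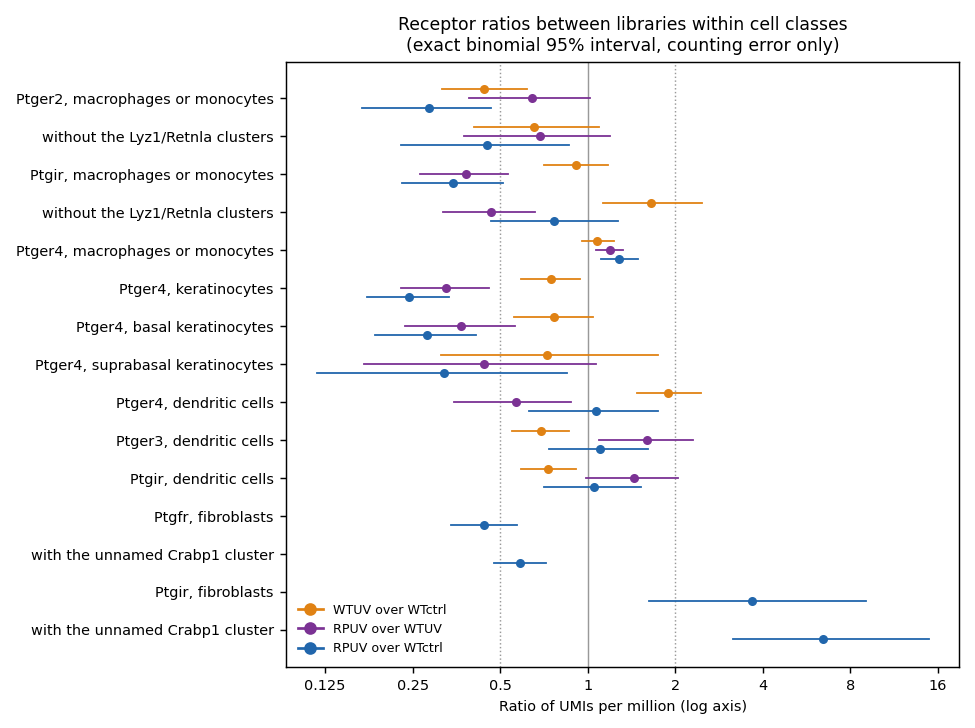
Ratios of CPM between pairs of libraries on a log axis, with exact binomial 95% intervals, for receptors in the named classes. Dotted lines mark ratios of 2 and 0.5. Ptger4 in keratinocytes lies left of 0.5 in both comparisons with RPUV, and leaving out the Lyz1/Retnla clusters moves Ptger2 and Ptgir in macrophages toward 1 in RPUV over WTctrl.

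Ptgdr2 (DP2), a chemoattractant receptor for prostaglandin D2 known from type 2 lymphocytes, basophils and eosinophils, was found almost only in WTUV. Of its 35 UMIs there, 18 were in innate lymphoid cells, at 15.1 (8.97 to 23.9) CPM, and 8 in T cells, at 3.10 (1.34 to 6.1), of which 5 were in gamma delta clusters. WTctrl had 1 UMI, in dendritic cells, and RPUV none. WTUV held 160 innate lymphoid cells, against 29 in WTctrl and 4 in RPUV. The 0 UMIs of the 29 WTctrl cells allow up to 33.7 CPM, so a difference within these cells was not detectable at this depth.

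Ptger1 (EP1), a prostaglandin E2 receptor that raises calcium, was near the limit of detection, with 11, 38 and 25 UMIs in the whole libraries. Pericytes or smooth muscle of RPUV had 10.5 (3.87 to 22.9) CPM from 6 UMIs, and T cells 2.83 and 2.71 in the wild-type libraries. In macrophages it was 0.383, 0.553 and 0.671 with overlapping intervals. No Ptger1 ratio was past the rule.

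Ptgfr (FP), the receptor for prostaglandin F2α, was concentrated in fibroblasts. They had 162 (143 to 183) CPM in WTctrl and 71.4 (56.4 to 89.1) in RPUV, from 266 and 78 UMIs, and none was found in the 10 fibroblasts of WTUV. The next named class in WTctrl, Schwann cells, had 21.4 (5.84 to 54.8), without overlap. RPUV over WTctrl was 0.441 (0.338 to 0.569) in fibroblasts, where 5.63% of tested genes were lower. Ptgfr was 278 (226 to 340) in the WTctrl Crabp1 cluster and 166 (128 to 212) in the unnamed RPUV Crabp1 cluster. With that unnamed cluster added, the fibroblast ratio was 0.586 (0.475 to 0.721), and without the WTctrl cluster it was 0.548 (0.413 to 0.723). With cells classed from their own markers it was 0.524, and with clusters made without integration 0.552. None of these was past the rule, so RPUV lay below WTctrl in each of these sets, by less than the rule asks. The thinned share of fibroblasts with a Ptgfr UMI was 28.3% (23.3 to 33.8) in WTctrl and 15.3% (10.8 to 21.4) in RPUV, and unthinned 42.8% and 23.4%, at median depths of 3289 and 4380 UMIs. Dendritic cells gave 0 of 612 and 0 of 158, which allows up to 0.490% and 1.90%, at 6000 and 5539 UMIs.

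The same Crabp1 clusters carried prostaglandin E2 receptors. Ptger3 was 121 (86.9 to 163) CPM in the WTctrl cluster and 71.2 (46.9 to 104) in the unnamed RPUV cluster, and Ptger4 was 48.8 (28.4 to 78.1) and 26.4 (12.6 to 48.5). Over the named fibroblasts of WTctrl and RPUV Ptger3 was 26.8 (19.5 to 36.0) and 15.6 (9.07 to 24.9). Ptger4 was 15.8 (10.3 to 23.2) and 13.7 (7.69 to 22.6), and neither receptor was past the rule. These sums include the WTctrl Crabp1 cluster and not the unnamed RPUV one. With the unnamed cluster added, Ptger3 was 26.7 and 29.9, a ratio of 1.12 (0.719 to 1.74), and the Ptger4 ratio was 1.08 (0.596 to 1.94). Without the WTctrl Crabp1 cluster, 2 Ptger3 UMIs were left in WTctrl fibroblasts against 15 in RPUV, a ratio of 9.14 (2.13 to 82.4). The direction of Ptger3 in fibroblasts therefore depends on which Crabp1 clusters are counted.

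Tbxa2r (TP), the thromboxane receptor, which contracts smooth muscle, was led by nerve sheath, mural cells and fibroblasts. Schwann cells had 37.5 (15.1 to 77.2) CPM in WTctrl and 25.1 (13.3 to 42.9) in RPUV, and 2 UMIs in the 9 cells of WTUV. Pericytes or smooth muscle had 24.4 (6.66 to 62.6), 38.7 (10.6 to 99.2) and 28.1 (16.1 to 45.6), and fibroblasts 8.52 (4.66 to 14.3) and 17.4 (10.5 to 27.2) in WTctrl and RPUV. Endothelial cells of RPUV had 5.99 (2.41 to 12.3) from 7 UMIs. T cells had 5.66 (1.54 to 14.5) in WTctrl and 2.71 (1.09 to 5.58) in WTUV, from 4 and 7 UMIs. In WTctrl they overlapped with fibroblasts. The libraries overlapped within the first 3 of these classes, and the fibroblast ratio of 2.04 (0.970 to 4.4) was not past the rule. WTUV, where the whole-library level was lowest, held 10 fibroblasts, 9 Schwann cells and 20 pericytes or smooth muscle cells.

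The share of innate lymphoid cells with a UMI of any of the 9 receptors, after thinning to 2000 UMIs, was 42.3% (25.5 to 61.1) in WTctrl and 35.8% (28.8 to 43.6) in WTUV, and that of fibroblasts was 36.2% (30.8 to 42.1) in WTctrl and 23.3% (17.7 to 30.1) in RPUV. Dendritic cells gave 15.7%, 13.0% and 17.7%, and macrophages 11.0%, 11.0% and 11.2%, so the macrophage share of any receptor was nearly level while its makeup by receptor differed. Unthinned, macrophages gave 19.1%, 37.9% and 22.3%. Keratinocytes gave 6.13% (4.84 to 7.74), 4.99% (3.25 to 7.58) and 2.20% (1.41 to 3.41), with RPUV below WTctrl without overlap. For any receptor together no class lacks a UMI, so these shares rank classes and do not count responsive cells.

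The receptors stood beside large differences in Ptgs2, the gene of the inducible ligand-making enzyme. It had 14.4, 117 and 486 CPM in WTctrl, WTUV and RPUV, in keratinocytes 5.43, 5.68 and 584, and in macrophages 8.16, 108 and 159. How far reads of the rat transgene were counted as mouse Ptgs2 was not tested. Of 36 genes of prostanoid synthesis, breakdown and signalling, all tested over the whole library, 1 was higher and 5 lower in WTUV over WTctrl, beside 4.93% and 15.7% of all genes tested. In RPUV over WTUV 10 were higher and 2 lower, beside 17.0% and 8.63%, and in RPUV over WTctrl 2 were higher (Ptgs2 and Rapgef3) and 1 lower (Hpgd), beside 7.63% and 8.29%. Their median log2 ratio was 0.04, 0.07 and 0.06, beside -0.03, 0.05 and -0.00 over all genes.

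In macrophages, where 31 of the 36 were tested, Ptgs1, the constitutive cyclooxygenase, was lower in both UVB libraries, at 0.412 (0.336 to 0.506) and 0.369 (0.279 to 0.484) of WTctrl. Hpgd, which inactivates prostaglandin E2, was 373, 191 and 80.8 CPM in WTctrl, WTUV and RPUV, lower in RPUV at 0.216 (0.200 to 0.234) of WTctrl and 0.424 (0.393 to 0.456) of WTUV. Slco2a1, the prostaglandin uptake transporter, was higher in RPUV than in WTUV, at 14.3 (3.12 to 133) from 11 and 2 UMIs. Over the whole library Slco2a1 was 5.98 CPM in WTUV and 25.7 in RPUV, and the part of RNA from other cells was not tested. Ptgs2 was 13.3 (WTUV) and 19.4 (RPUV) times the WTctrl level.

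In keratinocytes 31 of the 36 were tested, and these are the ratios past the rule. Macrophage markers in these cells summed to 149, 300 and 525 CPM in WTctrl, WTUV and RPUV, and their part in the ratios was not tested. Ptgs2 had a ratio of 103 (74.4 to 146) in RPUV over WTUV and 107 (79.4 to 149) in RPUV over WTctrl. Cbr1, a carbonyl reductase that can convert prostaglandin E2 to F2α, was higher at 2.14 (1.91 to 2.41) in RPUV over WTUV and 2.08 (1.87 to 2.32) in RPUV over WTctrl, and Adcy7, an adenylyl cyclase, at 2.52 (1.38 to 4.78) in WTUV over WTctrl and 2.21 (1.22 to 4.16) in RPUV over WTctrl. Arrb1, an arrestin that uncouples receptors, was lower at 0.234 (0.145 to 0.365) in RPUV over WTUV and 0.390 (0.238 to 0.625) in RPUV over WTctrl, Slco2a1 at 0.447 (0.385 to 0.518) in RPUV over WTctrl and Hpgds, a prostaglandin D2 synthase, at 0.485 (0.398 to 0.589) in RPUV over WTctrl.

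The genes most like each receptor were taken over 28 class and library sums by the Pearson correlation of log2 CPM, with a pseudocount of 10. These sums share libraries and depth, and the values describe them only. Ptgfr was closest to Pcolce2 (0.98), Gxylt2 (0.97) and Dkk2 (0.97), and Tbxa2r to Col5a3 (0.95), Ildr2 (0.94) and Kirrel (0.93). Ptger4 was nearest to Snx25 (0.82), Riox2 (0.80) and Il21r (0.79), and Ptger2 to Pde1b (0.82), Gm4285 (0.78) and Zfp619 (0.78). For Ptger3 the genes were Ramp1 (0.76), Ctnnd2 (0.70) and Bex3 (0.69), and for Ptgir Tnfsf9 (0.75), Ccdc170 (0.72) and Flna (0.71), which for these receptors is a looser likeness.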

How the data were processed

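Each deposited matrix held unnormalized UMI counts of genes by called barcodes. Cell Ranger 6.1.1 had made them, per the file headers, on mm10, per the labels. The authors' matrices had 5977, 6149 and 7240 barcodes, with 34985549, 82722013 and 37689836 UMIs. Libraries shared 8 to 11 barcodes per pair. Cells were kept, as in the study's methods, with under 10% mitochondrial UMIs, more than 200 genes and fewer than 4000 (6000 in WTUV). Libraries were integrated with SCTransform in Seurat 5.3.0 (R 4.3.3, sctransform 0.4.2, 3000 features, 30 dimensions, resolution 0.8). Each cluster was divided again, on counts without integration, by the Leiden method of leidenalg 0.10.2, giving 139 clusters. Of these, 104 were named from 25 marker panels, none holding a receptor, with limits set after the clusters had been seen. A set of 4 macrophage clusters with Lyve1 or Cd4 among their leading genes was kept: 10 of 10 macrophage markers exceeded 100 CPM there, while 6 of 7 lymphatic and 9 of 10 alpha beta T cell markers lay below 10. Doublets were not removed, since Scrublet (scanpy 1.11.5) marked 1.32% of cells in WTctrl but 0.0191% and 0.0329% in WTUV and RPUV, too few to be used alike in the 3 libraries.

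Counts were summed per class and library, without a test, because each group had 1 library. Intervals (95%) were exact Poisson for levels, exact conditional binomial for ratios and Wilson for shares (scipy 1.17.1). A count of 0 was given a floor of 3 UMIs. The ratio rule was checked on simulated Poisson counts, the model that the intervals assume. The simulation had no variation between mice or runs, so the check covers counting error only. Genes named are all 9 receptors, the genes of a fixed pathway list past the rule in macrophages or keratinocytes, and the 3 genes most like each receptor with at least 100 UMIs. The receptors and lists were chosen with earlier results of these data known. Sequences are from RefSeq (GRCm38.p6), matched by symbol for 8 of 9 receptors. An annotated overlap is not reported here. Figures were drawn with matplotlib.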

Additional observations from a re-analysis of the deposited data

Results flagged for a closer look

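Ptger3 and Ptgir were lower in one class and higher in another under the same pair of libraries, and the difference between the classes was not tested. Ptger3 in RPUV over WTUV was 0.281 in macrophages or monocytes and 10.1 in keratinocytes, and in RPUV over WTctrl 0.215 and 8.01. Ptgir in RPUV over WTctrl was 0.345 in macrophages or monocytes and 3.68 in fibroblasts. The macrophage Ptger3 rested on 4 UMIs in RPUV, the keratinocyte Ptger3 on 22 UMIs of 1 cluster, and the macrophage Ptgir ratio was 0.763 without the Lyz1 and Retnla clusters.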

How the results depend on the processing

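No paired analysis was possible because each group had 1 library, and for the same reason no replicate could be left out. Over the whole library, thinning each cell to 2000 UMIs left 2 of 4 receptors past the rule in WTUV over WTctrl and 2 of 4 in RPUV over WTUV. In RPUV over WTctrl the count of 1 was 2 over all deposited barcodes, 5 with a ratio of 1.5 and 0 with a ratio of 3. Within classes, the count of 2 in WTUV over WTctrl was 1 with under 4000 genes in every library. It was 1 after thinning and 1 with a ratio of 3. It was also 1 without the 4 Lyve1 or Cd4 clusters and 1 without the Lyz1 and Retnla clusters (both chosen after seeing the data). With cells classed from their own markers it was 5. The count of 6 in RPUV over WTUV was 2 after thinning, and that of 8 in RPUV over WTctrl was 4 with cells classed from their own markers. Thinning leaves fewer UMIs, and the other causes were not tested.

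Of 239 values of the 25 ratios past the rule, 197 stayed past it in the same direction, 37 fell short and 5 turned. Those were Ptger3 in macrophages, RPUV over WTUV, without integration (1.06), Ptger3 in keratinocytes with cells classed from their own markers (0.871 over WTUV, 0.770 over WTctrl) and without integration (0.789 over WTctrl), and Ptger2 in neutrophils, RPUV over WTUV, after thinning (1.41). Ptger4 in keratinocytes, RPUV over WTctrl, kept its direction and its side of the rule in every alternative. Of the 74 ratios not past the rule, 21 of 689 values came to pass it. A further 3 values could not be given because a library had 0 UMIs. Other scalings moved the median of all genes by over 0.1 on the log2 scale in smaller classes, at most by 0.36 (mast cells), and in keratinocytes by 0.12 in WTUV over WTctrl. Depth limited the fibroblasts of WTUV (10 cells) and the innate lymphoid cells of RPUV (4 cells), for which no ratio was given.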
